A study of Mus musculus with 4 samples.

Results

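*Lgr5*, *Ascl2*, *Smoc2*, *Olfm4*, *Lrig1*, *Ephb2*, *Ephb3*, *Cd44*, *Prom1* and *Sox9* are genes by which stem cells and early progenitors at the base of the intestinal crypt are commonly recognised. They were taken by symbol, and each had 1 entry among the 36144 gene names of the count table, so that all 10 were found. The table covers mouse colonoids, which are 3-dimensional cultures of colonic crypt epithelium, left untreated or given 2 mM sodium butyrate and collected at 48 h and 72 h. RNA from each of the 4 conditions was sequenced as 1 poly-A library, so there are no replicates, no test was run, and differences between libraries could not be set against culture-to-culture variation. Intervals are at the 95% level and reflect the error of counting alone.

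The 4 groups shared the same donor animal and medium. The labels describe colonoids at passage 3 from 1 wild-type male mouse aged 24 weeks, whereas the study's legend for this experiment names a Hes1-GFP mouse. The untreated libraries are labelled by day alone (day 2 and day 3), and the butyrate libraries also as 48 h and 72 h. The medium of all cultures, controls included, held R-spondin at 500 ng/ml, Noggin at 200 ng/ml, EGF at 40 ng/ml, the GSK3 inhibitor CHIR99021 at 3 µM and the ROCK inhibitor Y-27632 at 10 µM. Every library was therefore made under conditions that activate Wnt signalling and favour stem cells. Organoids from a single animal, grown without stroma, bacteria or immune cells, are the limit of this model.

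In the crypt, Wnt signals from the surrounding mesenchyme keep cells at the base dividing, and R-spondin strengthens those signals through Lgr5 and its relatives. *Ascl2*, *Ephb2*, *Ephb3*, *Cd44*, *Sox9* and *Lgr5* itself are known targets of this pathway, and their expression falls as cells move up the crypt and differentiate. Butyrate is a short-chain fatty acid that bacteria make from fibre. It is a fuel of mature colonocytes and an inhibitor of histone deacetylases.

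The libraries held between 20790225 and 24207840 counts, and mitochondrial genes took 14.1 to 18.4% of them. Counts were divided by a size factor for each library, and the results are called normalised counts here. A gene was followed across the table if its mean normalised count was at least 50, which 11650 genes reached. Of the 10 stem cell genes, 9 passed, and *Olfm4* did not. Epithelial markers were abundant, with sums over 8 genes of 145887 to 162130 normalised counts. The markers of stroma (7 genes) summed to 118 to 153, those of immune cells (6 genes) to 41.7 to 71.3, and those of endothelium and glia (5 genes) to 56.2 to 91.8, and *Col3a1*, *S100b* and *Sox10* had 0 counts in all 4 libraries, where a one-sided 95% limit allows up to 3 counts of each per library.

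The levels of the genes were compared per length, as CPM (counts scaled to a common library total) per kb of annotated exon. *Lrig1* had the highest mean level (55.5, from 47.3 to 66.0 over the 4 libraries), followed by *Prom1* (53.2, from 51.1 to 58.0), and these ranges overlapped. *Sox9* (33.2), *Lgr5* (27.4) and *Smoc2* (25.7) came next, and their ranges overlapped as well. *Ephb2* (20.7) and *Cd44* (20.6) were alike on this scale, and *Ephb3* (11.6) and *Ascl2* (9.71) lay below every library of *Cd44*. *Olfm4* was last, at 0.214. With the longest transcript as the length, *Prom1* moved ahead of *Lrig1*, and *Lgr5* and *Smoc2* ahead of *Sox9*, while the last 3 places were the same. Thus 9 of the 10 genes were well represented in these libraries. *Olfm4* marks stem cells in mouse small intestine and human colon and is known to be little expressed in mouse colon.

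*Lgr5*, the R-spondin receptor that marks cycling crypt stem cells, differed between treated and untreated colonoids in opposite directions at the 2 time points. At 48 h the untreated library had a normalised count of 7546 and the butyrate library 3939, and at 72 h the untreated library had 5044 and the butyrate library 8714. The butyrate library was thus the lowest of the 4 at 48 h and the highest of the 4 at 72 h. The log2 fold change of butyrate over untreated was −0.94 at 48 h (−0.99 to −0.88), which is lower than in all but 1.9% of the genes followed. At 72 h it was 0.79 (0.74 to 0.84). The change at 72 h exceeded that at 48 h by 1.73 (1.65 to 1.80), and 0.3% of the genes followed had a larger positive difference. Because whole cultures were sequenced, fewer *Lgr5*-expressing cells and less *Lgr5* RNA per cell cannot be told apart, and the same holds for every gene below.

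*Smoc2*, a secreted calcium-binding matricellular protein of the stem cell signature, had the same order of signs with a smaller difference at 48 h. Untreated colonoids gave a normalised count of 4156 at 48 h and 3240 at 72 h, and treated colonoids gave 3359 at 48 h and 5271 at 72 h. On the log2 scale butyrate differed from its control by −0.31 (−0.37 to −0.24) at the earlier time and by 0.70 (0.64 to 0.77) at the later, a difference of 1.01 (0.92 to 1.10). The butyrate library at 72 h was the highest of the 4, and the other 3 lay between 3240 and 4156. *Lgr5* and *Smoc2* were the 2 of 9 genes that were lower with butyrate at 48 h and higher at 72 h with both intervals excluding 0, a pattern held by 6.24% of all genes followed.

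*Olfm4*, a secreted glycoprotein, was represented by 16 raw counts without and 2 with butyrate at 48 h, and by 13 without and 24 with butyrate at 72 h. These counts were lowest and highest in the same libraries as those of *Lgr5*. The log2 ratio of butyrate to untreated at 48 h, −2.62 with the pseudocount of 1 and −1.65 with one of 5, rests on the 2 counts, and its interval ran from −6.34 to −1.08. At 72 h the interval ran from −0.02 to 2.11 and included 0.

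*Ascl2*, the transcription factor that sets the stem cell programme downstream of Wnt, did not share the pattern of *Lgr5*. Normalised counts of *Ascl2* were 441 (untreated) and 503 (butyrate) at 48 h, then 193 (untreated) and 268 (butyrate) at 72 h. Both libraries at 72 h lay below both libraries at 48 h. The log2 change from 48 h to 72 h was −1.19 (−1.45 to −0.95) without butyrate and −0.91 (−1.13 to −0.69) with it. The butyrate library was the higher at both times, by 0.19 (0.0055 to 0.37) at 48 h and by 0.47 (0.20 to 0.75) at 72 h. The interval at 48 h only just excluded 0, and the value there was 0.18 with TMM factors. The values at 48 h and 72 h differed by 0.28, with an interval of −0.04 to 0.61 that included 0.

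*Sox9*, a transcription factor of crypt-base and progenitor cells, also separated by time rather than by treatment. At 48 h the normalised count was 4012 without and 4493 with butyrate, whereas at 72 h it was 1949 without and 1757 with butyrate. The log2 change from 48 h to 72 h was −1.04 (−1.12 to −0.96) without butyrate and −1.35 (−1.44 to −1.27) with it. The butyrate difference was small beside this, at 0.16 (0.10 to 0.22) at 48 h and −0.15 (−0.25 to −0.05) at 72 h. The sign at 72 h turned to 0.02 when the libraries were scaled on the epithelial marker list. *Sox9* was the 1 of 9 genes that was higher with butyrate at 48 h and lower at 72 h with both intervals excluding 0, which 5.11% of all genes followed also were.

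**Figure D1:**
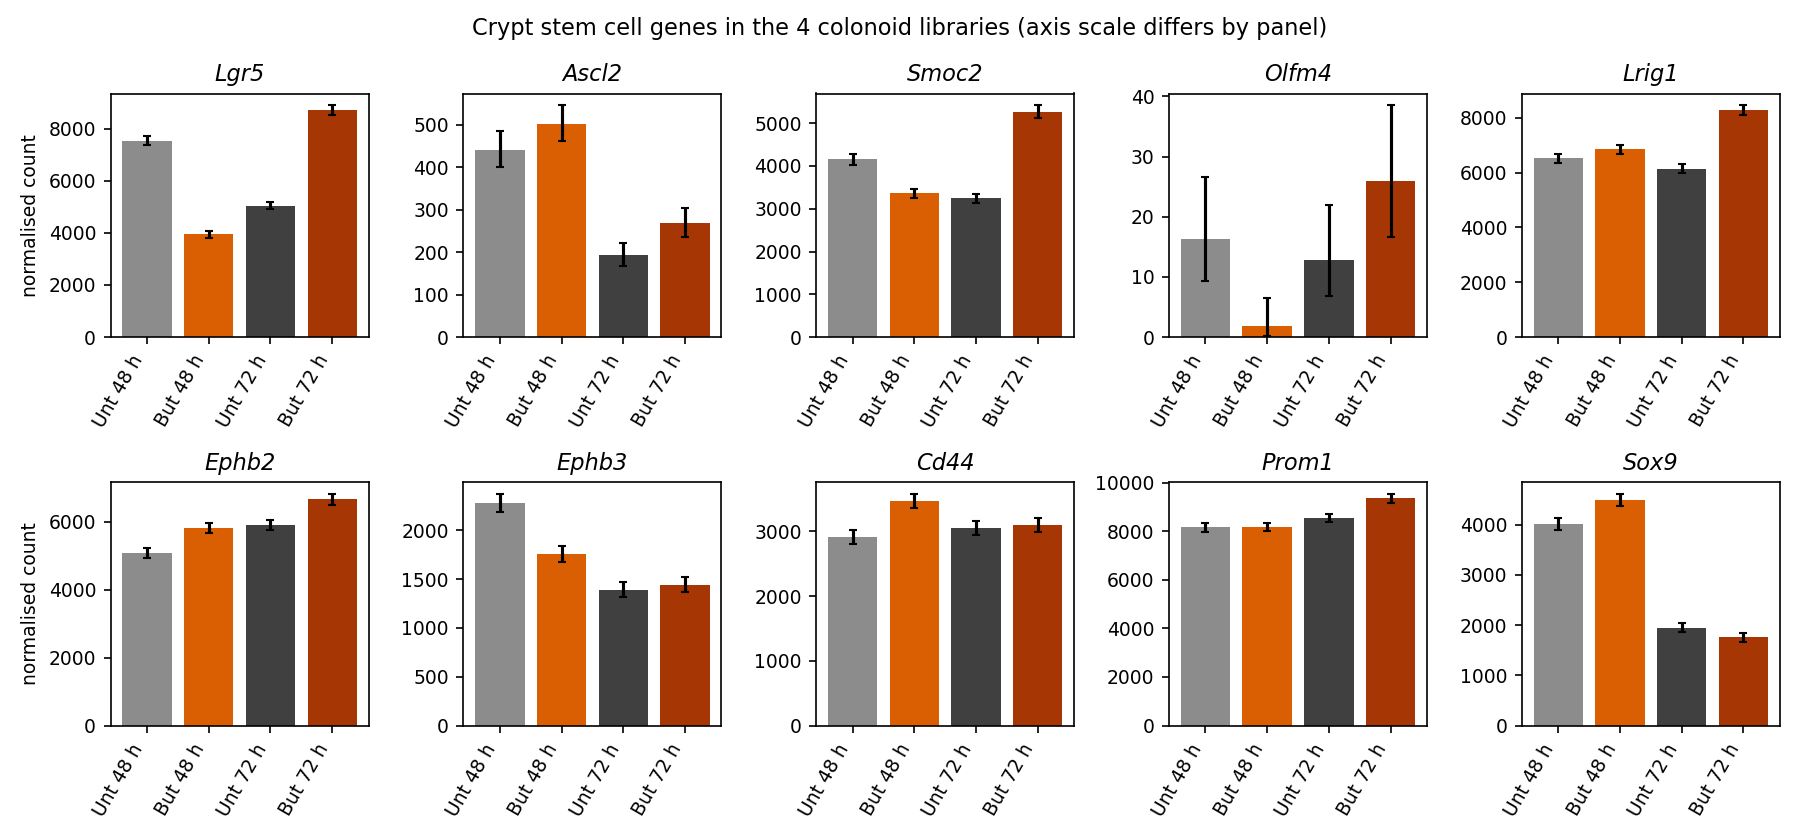
Normalised counts (linear vertical axis from 0, scale differing by panel) of the 10 crypt stem cell genes in the untreated (Unt) and butyrate-treated (But) libraries at 48 h and 72 h, 1 bar per library, with 95% counting intervals. *Lgr5* runs from 3939 in the butyrate library at 48 h to 8714 in that at 72 h, *Ascl2* and *Sox9* are lower in both 72 h libraries than in both 48 h libraries, and *Prom1* spans only 8158 to 9347.

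*Ephb2* and *Ephb3* encode receptors that sort cells along the crypt by binding ephrin-B ligands on differentiated cells. *Ephb2* had normalised counts of 5071 (untreated) and 5815 (butyrate) at 48 h, and of 5888 (untreated) and 6653 (butyrate) at 72 h. It was higher with butyrate by nearly the same amount at both times, with log2 fold changes of 0.20 (0.14 to 0.25) and 0.18 (0.12 to 0.23). *Ephb3* had normalised counts of 2280 and 1755 at 48 h and of 1393 and 1442 at 72 h, untreated first. With butyrate it differed by −0.38 (−0.47 to −0.29) on the log2 scale at 48 h, whereas the value at 72 h was 0.05 (−0.06 to 0.16). In untreated colonoids *Ephb3* changed by −0.71 (−0.81 to −0.61) from 48 h to 72 h, whereas *Ephb2* changed by 0.22 (0.16 to 0.27), so these related receptors went in opposite directions with time.

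*Lrig1* encodes a transmembrane protein that restrains ErbB receptors and marks a stem cell population overlapping that of *Lgr5*. At 48 h the libraries had 6518 (untreated) and 6848 (butyrate) normalised counts of *Lrig1*, and at 72 h 6150 (untreated) and 8276 (butyrate). The butyrate library at 72 h stood above the other 3, with a log2 fold change of 0.43 (0.38 to 0.48) over its untreated control against 0.07 (0.02 to 0.12) at 48 h. Up to 420 exonic bases of *Lrig1* are shared with *Slc25a26* on the opposite strand, which had 79 to 137 counts per library. *Prom1* shares up to 815 with *Gm16401* on the opposite strand and *Olfm4* up to 153 with *Gm6999* on the same strand, and neither partner was matched in the count table.

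*Cd44*, the hyaluronan receptor, and *Prom1*, which encodes the pentaspan membrane protein CD133, varied least. *Cd44* had normalised counts of 2910 and 3473 at 48 h and of 3058 and 3096 at 72 h, untreated first. Only the 48 h library with butyrate stood apart, by 0.26 (0.18 to 0.33) on the log2 scale, against 0.02 (−0.06 to 0.09) at 72 h. *Prom1* had normalised counts of 8158 and 8184 at 48 h and of 8537 and 9347 at 72 h, untreated first. The log2 difference with butyrate was 0.0046 (−0.04 to 0.05) at 48 h, and that at 72 h was 0.13 (0.09 to 0.17). The highest library exceeded the lowest by 1.19-fold for *Cd44* and 1.15-fold for *Prom1*, compared with 2.21-fold for *Lgr5*, 2.56-fold for *Sox9* and 2.61-fold for *Ascl2*. Both genes have many annotated transcripts (9 and 19), and the deposited counts are per gene, so a shift between isoforms would not be seen here.

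The 9 genes that passed the count minimum did not move as one with butyrate, and their log2 fold changes ran from −0.94 to 0.26 at 48 h and from −0.15 to 0.79 at 72 h. None was at least 2-fold higher or at least 2-fold lower at 48 h, where 3.93% of all genes followed were higher by that much and 1.55% lower. At 72 h again none was, beside 2.33% higher and 1.61% lower over all genes. For 9 genes these shares come to less than 1 gene, so the absence of 2-fold changes does not set the group apart. With a limit of 1.5-fold, *Lgr5* was lower at 48 h (1 of 9, beside 6.43% of all genes), and *Lgr5* and *Smoc2* were higher at 72 h (2 of 9, beside 5.88%). The median log2 fold change of the 9 genes was 0.07 at 48 h, beside −0.03 over all genes, and 0.18 at 72 h, beside −0.0005. The 72 h median was 0.30 with *Olfm4* included and 0.34 with scaling on the epithelial markers, which moved the median of all genes to 0.17. By sign alone, 6 of 9 were higher with butyrate at 48 h, beside 46.9% of all genes, and this count includes *Prom1*, whose sign at 48 h was negative under 3 other scalings. At 72 h 8 of 9 were higher, beside 49.9%, *Sox9* being the exception under the size factors used. The summed normalised count of all 10 genes was 41108 without and 38369 with butyrate at 48 h, against 35464 without and 44850 with butyrate at 72 h. Without *Lgr5* the other 9 genes summed to 33561 and 34431 at 48 h and to 30420 and 36136 at 72 h, so the lower sum with butyrate at 48 h was that of *Lgr5*.

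With culture time, *Ascl2* and *Sox9* changed more than they did with butyrate, whereas *Ephb2* and *Smoc2* differed by similar amounts in both kinds of comparison. In untreated colonoids, *Ascl2* and *Sox9* were at least 2-fold lower at 72 h than at 48 h, which is 2 of 9 genes beside 0.841% of all genes. None of the 9 was at least 2-fold higher, beside 0.755%. At 1.5-fold *Ephb3* joined them (3 of 9 lower, beside 3.32%). The median of the 9 genes was −0.36, beside −0.0048 over all genes. In butyrate-treated colonoids, *Lgr5* was at least 2-fold higher at 72 h (1 of 9, beside 1.66%), with a log2 change of 1.15 (1.09 to 1.20), and *Sox9* at least 2-fold lower (1 of 9, beside 2.51%). At 1.5-fold, *Lgr5* and *Smoc2* were higher there (2 of 9, beside 6.63%) and *Ascl2* and *Sox9* lower (2 of 9, beside 8.45%). The median there was 0.19, beside −0.0089. Without butyrate, *Lgr5* changed by −0.58 (−0.63 to −0.53) over the same time, so the level of *Lgr5* went down between the untreated libraries and up between the treated ones. The butyrate comparisons and the time comparisons share libraries and are not independent of each other.

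**Figure D2:**
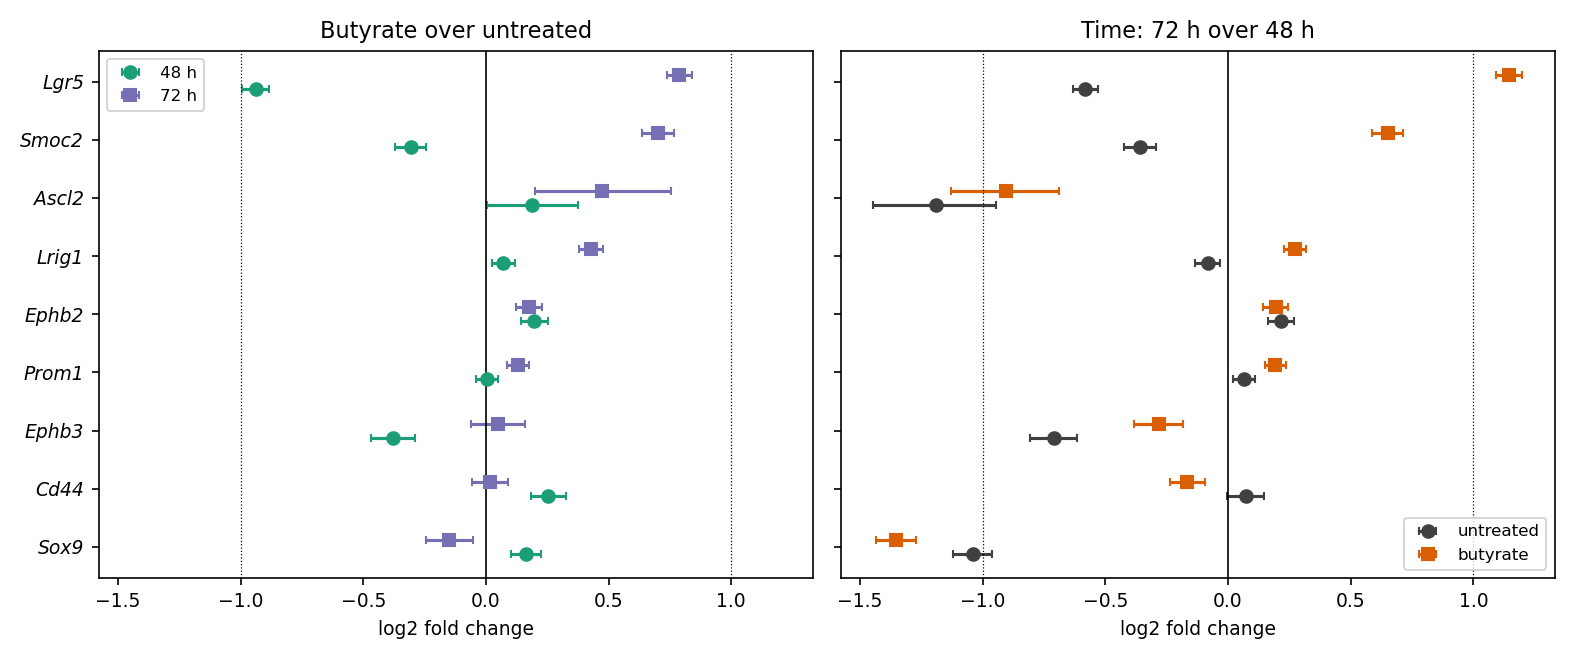
Log2 fold changes of the 9 genes that passed the count minimum, for butyrate over untreated at each time (left) and for 72 h over 48 h within each treatment (right), with 95% counting intervals and dotted lines at 2-fold. *Lgr5* lies at −0.94 and 0.79 on the left, and *Sox9* at −1.04 and −1.35 on the right, while the *Sox9* value at 72 h on the left, −0.15, becomes 0.02 with scaling on epithelial markers.

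**Figure D3:**
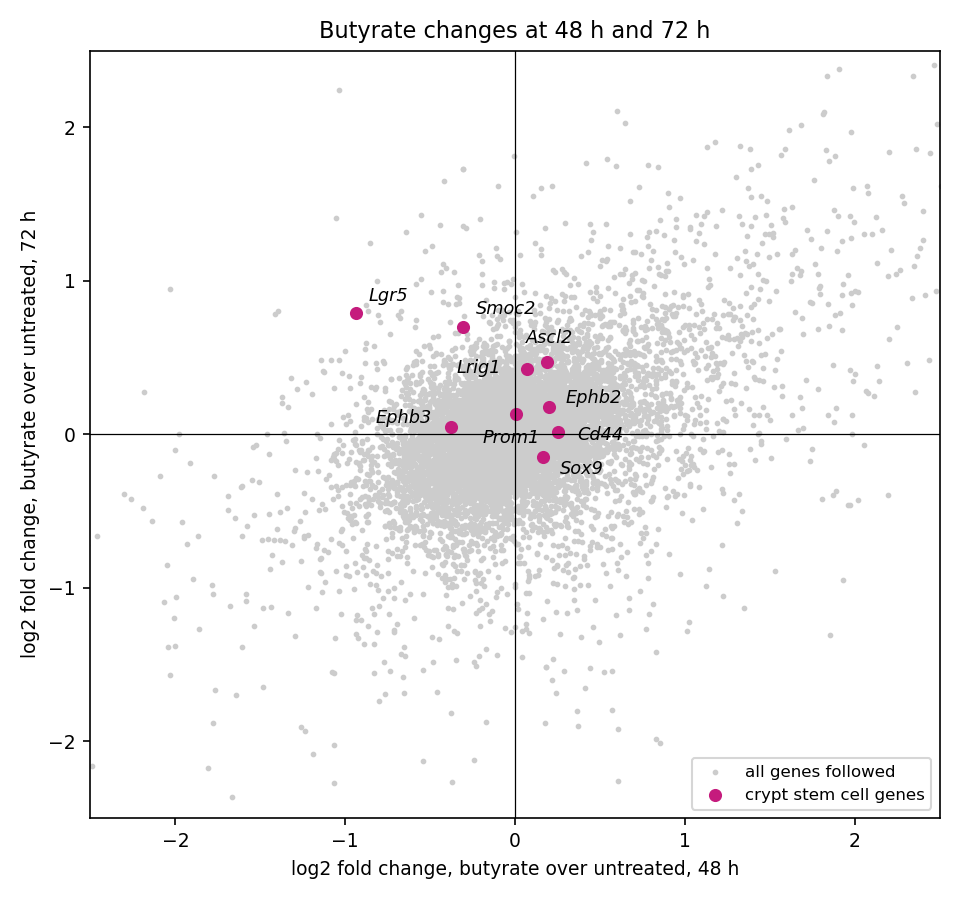
Log2 fold change with butyrate at 48 h (horizontal) against 72 h (vertical) for all genes followed (grey, 98 of 11650 lie outside the axes) and for 9 crypt stem cell genes (magenta). *Lgr5* and *Smoc2* sit at the upper left, lower at 48 h and higher at 72 h, and the other 7 lie within 0.5 of 0 on both axes.

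The likeness of 2 genes was measured as the Euclidean distance between their log2 normalised counts over the 4 libraries, each centred on its own mean, among 10786 genes with a mean of at least 100. With only 4 libraries many genes share a shape, and nothing about function follows from it. The nearest genes to *Lgr5* were *Pou6f1* (distance 0.10), *Gnpda2* (0.23), *Slc27a2* (0.25), *Fstl4* (0.28) and *Aspm* (0.29). All 5 were lower with butyrate at 48 h and higher at 72 h, which is the pattern they were chosen for. Among the stem cell genes *Smoc2* was nearest to *Lgr5*, in place 70 at 0.47, and *Sox9* was farthest, at 1.80. *Ascl2* and *Sox9* were 0.47 apart, and *Ephb2* and *Prom1*, at 0.16, were the closest pair of stem cell genes.

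The promoter windows of *Ascl2* and *Ephb3* are printed because both genes were lower at 72 h than at 48 h with and without butyrate. *Ascl2* lies at chr7:142966829-142969264 on the minus strand and *Ephb3* at chr16:21204755-21223305 on the plus strand of GRCm38. Each window runs from 250 bases before to 50 bases after the RefSeq start on GRCm38.p6, 5′ to 3′ along the gene, at chr7:142969215-142969514 and chr16:21204545-21204844. Capitals mark an E-box, CAGCTG, the kind of site that basic helix-loop-helix factors such as Ascl2 recognise.
*Ascl2*: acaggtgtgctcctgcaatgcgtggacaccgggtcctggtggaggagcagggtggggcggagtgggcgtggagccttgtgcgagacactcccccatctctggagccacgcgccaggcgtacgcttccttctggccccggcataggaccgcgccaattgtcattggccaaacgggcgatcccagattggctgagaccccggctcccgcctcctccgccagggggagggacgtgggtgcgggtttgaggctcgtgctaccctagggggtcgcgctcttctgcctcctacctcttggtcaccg
*Ephb3*: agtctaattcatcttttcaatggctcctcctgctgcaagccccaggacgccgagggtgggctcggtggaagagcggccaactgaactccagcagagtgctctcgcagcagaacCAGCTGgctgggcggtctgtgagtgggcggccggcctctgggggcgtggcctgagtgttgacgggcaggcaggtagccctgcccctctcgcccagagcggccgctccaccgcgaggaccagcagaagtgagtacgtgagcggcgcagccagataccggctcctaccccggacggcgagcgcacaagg
The RefSeq table held windows for 7 of the 10 genes, and 8 windows in all because *Prom1* has 2. No window was available for *Lgr5*, *Smoc2* or *Sox9*, although *Sox9* was also lower at 72 h with and without butyrate. The core of the TCF/LEF site, CTTTGAT or ATCAAAG, was in 0 of the 8, beside 3.73% of 32851 promoter windows of the same length. The E-box CAGCTG, which reads the same on both strands, was in 1 of the 8, that of *Ephb3*, 137 bases before the start, beside 16.3% of all windows. A match describes letters in a window and is not a bound site, and sites farther from the start were not searched.

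The remaining genes lie on GRCm38 as follows. *Lgr5* is at chr10:115450311-115587780 (minus strand), *Smoc2* at chr17:14279506-14404790 (plus) and *Olfm4* at chr14:79984081-80023139 (plus). *Lrig1* is at chr6:94604529-94700158 (minus), *Ephb2* at chr4:136647539-136835988 (minus) and *Cd44* at chr2:102811141-102901665 (minus). *Prom1* is at chr5:43993620-44102032 (minus) and *Sox9* at chr11:112782224-112787760 (plus). All 10 are annotated as protein-coding.

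The genes that act with *Lgr5* in the R-spondin and Wnt pathway had a median log2 difference with butyrate of 0.12 over 17 genes at 48 h, and of 0.44 at 72 h. At least 2-fold higher were 1 of 17 at 48 h and 3 of 17 at 72 h, beside 3.93% and 2.33% of all genes, and none was 2-fold lower. *Notum*, a secreted Wnt inhibitor and Wnt target, differed by 1.83 at 48 h and by 1.85 at 72 h on the log2 scale, on 28 to 115 counts. *Nkd1*, a negative feedback regulator, had −0.0045 at 48 h and 1.82 at 72 h, and *Lef1*, a nuclear mediator of Wnt signals, 0.39 and 1.16. The order of signs of *Lgr5* and *Smoc2*, lower at 48 h and higher at 72 h with both intervals excluding 0, was held by 4 of 17 genes, beside 6.24% of all genes, and these were named after their values were seen. *Axin2*, another feedback target, had −0.14 (−0.19 to −0.09) at 48 h and 0.62 (0.57 to 0.68) at 72 h. *Sp5*, a transcription factor and Wnt target, had −0.42 and 0.86, *Apcdd1*, a Wnt inhibitor, −0.41 and 0.47, and *Rnf43*, which removes Wnt receptors and is held back by R-spondin, −0.09 and 0.37. *Lgr4*, the R-spondin receptor most related to *Lgr5* and also named after its values were seen, had 0.67 at 48 h and 0.19 at 72 h. *Fzd5*, a Wnt receptor, went from 0.47 to −0.49, and *Tcf7l2*, the main Wnt transcription factor of this epithelium, had −0.18 and −0.14.

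Of 12 other genes of the crypt stem cell signature, 11 passed the count minimum. Their median butyrate change was −0.15 at 48 h and 0.37 at 72 h. At least 2-fold higher at both times were *Msi1*, an RNA-binding protein of stem and progenitor cells (2.36 and 1.86), and *Igfbp4*, a binding protein of insulin-like growth factors (2.28 and 1.55), beside 3.93% and 2.33% of all genes. The lowest by the mean of both times were *Cd24a*, a surface glycoprotein (−0.66 and −0.18), and *Zbtb38*, a zinc-finger factor (−0.75 and −0.03). The order of signs of *Lgr5* was held, with both intervals excluding 0, by 3 of 11 genes, beside 6.24% of all genes, which were named after their values were seen. *Rgmb*, a bone morphogenetic protein co-receptor, had −0.56 and 0.17, *Cdca7*, a cell-cycle-associated factor, −0.15 and 0.43, and *Cdk6*, a cyclin-dependent kinase, −0.15 and 0.37. Of 6 genes of reserve and injury-responsive stem cells, *Tert*, the telomerase catalytic subunit, was at least 2-fold higher at 48 h (1.22, 1 of 6 beside 3.93% of all genes), and none was at 72 h (beside 2.33%), where *Tert* had 0.46.

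The ephrin-B ligands *Efnb1* and *Efnb2*, which EphB receptors bind, were lower with butyrate. On the log2 scale *Efnb1* differed by −0.38 (−0.48 to −0.29) at 48 h and −0.48 (−0.58 to −0.39) at 72 h, and *Efnb2* by −0.23 (−0.32 to −0.14) and −0.41 (−0.49 to −0.33). *Efnb3*, the third of these ligands, was higher at 48 h by 0.80 (0.31 to 1.33) and had −0.44 (−1.05 to 0.15) at 72 h, on 41 to 99 counts. *Ephb2*, whose protein binds ephrin-B1 and ephrin-B2, was higher with butyrate at the same times. Not all EphB receptor genes were. *Ephb3* had −0.38 (−0.47 to −0.29) at 48 h and 0.05 (−0.06 to 0.16) at 72 h. *Ephb4* had −0.44 (−0.51 to −0.38) at 48 h and −0.0067 (−0.08 to 0.07) at 72 h. Over the 4 of 6 other EphB and ephrin-B genes that passed the count minimum, the medians were −0.31 and −0.42, and none was 2-fold changed, where the all-gene shares (3.93% higher and 1.55% lower at 48 h, 2.33% and 1.61% at 72 h) come to less than 1 gene in a list of this size, and likewise in the next. The 5 of 6 Lrig and ErbB genes that passed had medians of −0.28 and −0.29, with none 2-fold changed. At 48 h the ErbB receptor genes *Egfr* (−0.62), *Erbb3* (−0.60) and *Erbb2* (−0.28) were lower, whereas *Lrig2* had 0.25 (0.06 to 0.45) and *Lrig3* 0.14 (−0.01 to 0.29). At 72 h *Lrig3* was the lowest of the 5, at −0.56 (−0.71 to −0.43), and *Lrig2* had 0.16 (−0.04 to 0.36).

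Markers of differentiated cells also differed between these libraries. The summed normalised count of 8 colonocyte genes was 43006 without and 71509 with butyrate at 48 h, against 60024 without and 38403 with butyrate at 72 h. These sums were carried by *Car1*, a carbonic anhydrase (20390, 44920, 34634 and 18850 in the same order), and the 48 h difference also by *Slc26a3*, a chloride-bicarbonate exchanger (3050, 7450, 4330 and 3778). By sign, 6 of 8 colonocyte genes were higher at 48 h, beside 46.9% of all genes, while *Vil1* (−0.23) and *Fabp2* (−0.91) were lower. At 72 h 0 of 8 were higher, beside 49.9%. At least 2-fold higher were 3 of 8 colonocyte genes at 48 h, beside 3.93% of all genes, and at least 2-fold lower was 1 of 8 at 72 h, beside 1.61%. At 72 h, 3 of 8 goblet cell genes, 2 of 5 enteroendocrine genes and 2 of 4 tuft cell genes were also at least 2-fold lower, beside the same 1.61%. At 48 h none of these was 2-fold changed, where 3.93% of all genes were higher and 1.55% lower, which comes to less than 1 gene in lists of these sizes. The 2 deep crypt secretory genes differed from each other. *Reg4* had 0.23 at 48 h and 1.06 at 72 h on the log2 scale, and *Kit* had −0.94 and −0.58. *Reg4* was thus at least 2-fold higher at 72 h (1 of 2, beside 2.33% of all genes). The goblet sums were 114553 and 92691 at 48 h and 167125 and 90757 at 72 h, untreated first. Without *Muc2*, the main mucin, they were 41492 and 40638 at 48 h and 47695 and 25275 at 72 h, so the difference at 48 h was mostly that of *Muc2*. The median over 10 proliferation genes was 0.05 at the earlier and 0.28 at the later time. None was 2-fold changed, and the all-gene shares (at 72 h, 2.33% higher and 1.61% lower) come to less than 1 gene here too. The part of these cell types in the values of the stem cell genes was not tested.

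**Figure D4:**
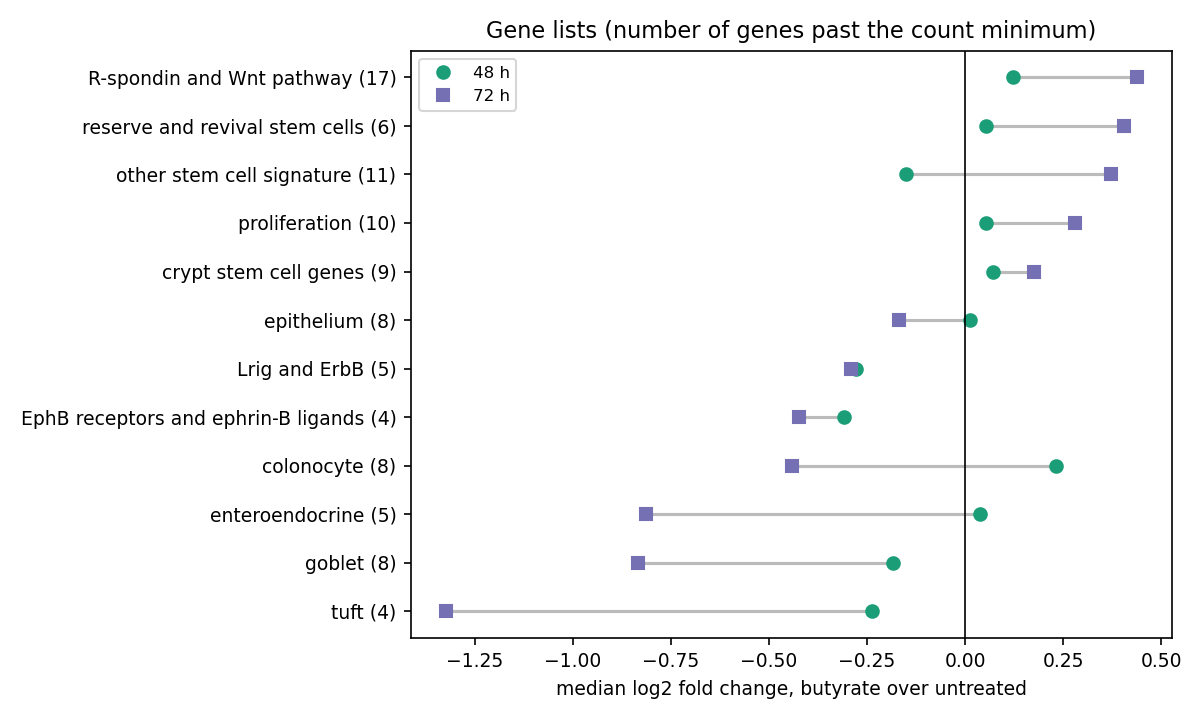
Median log2 fold change with butyrate at 48 h (circles) and 72 h (squares) of each gene list, with the number of genes that passed the count minimum in brackets. The crypt stem cell genes lie at 0.07 and 0.18, the R-spondin and Wnt pathway at 0.12 and 0.44, and goblet and tuft cell genes at −0.83 and −1.32 at 72 h.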

How the data were processed

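RNA was sequenced from 4 mouse colonoid cultures by a core facility. The authors deposited whole-number counts per gene, without normalisation. Per the study's methods these are estimates, made by pseudoalignment with a pipeline built on kallisto, and collapsed from transcripts to genes by tximport. The submitters' processing notes name kallisto 0.44.0 and the GRCm38.p6 build. Estimated counts share reads between similar transcripts, which can blur related or overlapping genes.

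Gene names listed more than once (2) were left out. Size factors were computed with DESeq2 1.42.0 in R 4.3.3 over genes that exceeded 10 counts in 2 or more libraries, as in the study's methods. Log2 fold changes were taken in Python 3.11.15 (numpy 2.4.6, pandas 2.3.3) after adding a pseudocount of 1. Intervals at the 95% level were exact Clopper-Pearson intervals on pairs of counts (scipy 1.17.1), exact Poisson intervals for single libraries, and a normal approximation for differences of log2 fold changes. Reads carried no molecular identifiers, so they are not independent molecules. With 1 library per condition no p-value was computed. Genes whose mean normalised count reached 50 formed the background, and 2-fold changes were counted.

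Positions and exon lengths were matched by symbol to the GENCODE annotation of GRCm38, and promoter windows from RefSeq. Named genes were the 10 stem cell genes, the 5 genes nearest to *Lgr5*, and, in other lists, genes that were at least 2-fold changed with butyrate or had the highest or lowest mean change (at most 2 each), and markers of other cell types at 0. *Axin2*, *Sp5*, *Apcdd1*, *Rnf43*, *Lgr4*, *Rgmb*, *Cdca7*, *Cdk6*, *Erbb2*, *Muc2* and the genes that overlap stem cell genes are outside this rule, and not all genes it allows are named. The genes and lists were chosen with earlier results of these data known. The log2 fold changes and Clopper-Pearson intervals were checked on simulated Poisson counts, which hold counting error alone. Alternatives were edgeR 4.0.16 TMM factors, total counts with and without mitochondrial genes, size factors from all genes, scaling on epithelial markers, a pseudocount of 5, a 1.5-fold limit and other count minimums.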

Additional observations from a re-analysis of the deposited data

Results flagged for a closer look

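Of 47 genes checked, the following 18 differed with butyrate in one direction at 48 h and in the other at 72 h. Both counting intervals excluded 0 for each, and with 1 library per condition the difference was not tested. Given as the log2 change with butyrate at 72 h minus that at 48 h, the difference was 1.73 for *Lgr5*, 1.01 for *Smoc2* and −0.31 for *Sox9*. Among genes of the R-spondin and Wnt pathway it was 0.76 for *Axin2*, 1.28 for *Sp5*, 0.88 for *Apcdd1*, 0.46 for *Rnf43* and −0.96 for *Fzd5*. In the other stem cell signature it was 0.72 for *Rgmb*, 0.58 for *Cdca7* and 0.52 for *Cdk6*. Among colonocyte genes it was −2.02 for *Car1* and −1.48 for *Slc26a3*. The list is not complete, as genes not given in it also turned in sign. The colonocyte gene *Car4* went from 1.87 (1.60 to 2.16) at 48 h to −0.39 (−0.73 to −0.06) at 72 h. The goblet gene *Clca1* went from 0.61 (0.51 to 0.70) to −2.26 (−2.41 to −2.11). Among the genes chosen for their likeness to *Lgr5*, the change at 72 h minus that at 48 h was 1.58 for *Pou6f1*, 1.35 for *Gnpda2*, 1.33 for *Slc27a2*, 1.26 for *Fstl4* and 1.28 for *Aspm*.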

How the results depend on the processing

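With 1 library per condition, no pairing of replicates within a time was possible and no library could be left out. A model of treatment plus time, which takes both times as repeats, was not run. Of 240 recomputed log2 changes of the 10 genes, 210 stayed within the counting interval, 27 moved outside it with the same sign and 3 moved outside it with the sign turned. TMM factors, size factors from all genes, total counts without mitochondrial genes and a pseudocount of 5 kept 40 of 40 each within it, although the *Prom1* change at 48 h, 0.0046, fell to between −0.0074 and −0.0021 with the first 3 of these, which leaves 5 of 9 genes higher. With total counts, *Prom1* in untreated colonoids, 72 h against 48 h, turned to −0.013 and *Cd44* to −0.0067, and the median of the 9 genes became 0.23 at 72 h with butyrate and −0.44 with time in untreated colonoids. Scaling on the epithelial markers, 7 of 8 of which were lower with butyrate at 72 h, moved the median of all genes to 0.17 at 72 h and to 0.10 from 48 h to 72 h with butyrate. It gave medians of 0.34 and 0.30 for the 9 genes in those comparisons and turned the *Sox9* change at 72 h to 0.019. The differences between 72 h and 48 h became 1.90 for *Lgr5*, 1.18 for *Smoc2*, 0.53 for *Lrig1*, 0.15 for *Ephb2*, 0.60 for *Ephb3*, −0.067 for *Cd44*, 0.30 for *Prom1* and −0.14 for *Sox9*. With a 1.5-fold limit, 1 gene was lower with butyrate at 48 h (beside 6.43% of all genes), 2 were higher at 72 h (5.88%), 3 were lower with time in untreated colonoids (3.32%), and with time under butyrate 2 were higher (6.63%) and 2 lower (8.45%). With all 10 genes, an alternative chosen after seeing the data, the median at 72 h was 0.30. The shares of all genes past 2-fold were 1.82 to 6.94% with the count filter of the methods and 0.18 to 0.833% with a mean of at least 500. Except where the construction of the alternative shows it, the cause was not tested.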
